A study of Mus musculus with 9 samples.

Results

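Kbtbd11 is 1 gene of the 23282 gene rows read in RAW 264.7 cells, a mouse macrophage line that turns into osteoclast-like cells under RANKL, the cytokine that binds the receptor RANK on osteoclast precursors. The gene was chosen from its measured values, because it was lower in both treated groups than with RANKL alone, so its fold changes against RANKL alone are described here without a test. It was 1 of 11193 genes that reached 10 adjusted reads in 3 or more libraries, and it stood at 74.8 adjusted reads or more in all 9. An adjusted read is 2 raised to the deposited log2 value, less 1, and low values lay near whole reads.

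The RNA came from 3 groups of 3 libraries. Cells at passage 30 received RANKL at 50 ng/mL alone (the negative control), surface proteins of *Propionibacterium freudenreichii* MJ2 at 10 μg/mL with RANKL, or heat-killed MJ2 at 10000000 cells/mL, and were treated for 4 days. The labels list these treatments together and do not say for each heat-killed MJ2 library that RANKL was also given. All libraries come from this single BALB/c-derived line, and no group labelled as lacking RANKL was analysed here. Nothing in the labels says that replicates were separate cultures, so p-values measure only the spread between these libraries. In bulk RNA, fewer cells of a type and less RNA per cell cannot be told apart.

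Kbtbd11 encodes a protein with a BTB domain and kelch repeats. In this family the BTB domain binds cullin-3, the scaffold of a ubiquitin ligase, while the kelch repeats hold the protein to be ubiquitinated. Kbtbd11 is known as a gene that RANKL induces and that restrains osteoclast formation, through cullin-3-dependent ubiquitination of NFATc1, the transcription factor that drives the osteoclast programme.

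The totals ranged from 5930926 to 6503682 adjusted reads per library. All 10 macrophage markers examined were at 10 adjusted reads or more in each group mean, while 6 of 16 markers of other cell types were at 0 in each group and the 16 together gave 26.5 to 110 adjusted reads per library. The libraries were made with a 3′-end kit, which gives about 1 read per transcript, so levels were compared between genes without correction for length. An adjusted read is not an independent molecule.

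Kbtbd11 was an abundant transcript with RANKL alone, intermediate with heat-killed MJ2 and low with surface proteins. With RANKL alone it stood at 2061, 1786 and 1927 adjusted reads. With heat-killed MJ2 it stood at 517, 483 and 578 adjusted reads. With surface proteins it stood at 164, 74.8 and 158 adjusted reads. Every library of each group lay apart from every library of the other groups, in the order RANKL alone, heat-killed MJ2, surface proteins. This held for 48.4% of all genes tested between surface proteins and RANKL alone, for 30.2% between heat-killed MJ2 and RANKL alone and for 42.3% between the treatments, so separation by itself was common.

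Set against the other genes, Kbtbd11 moved from the most abundant transcripts to the lower part of the range. It was above 95.2% to 96.1% of the 11193 genes in the libraries with RANKL alone, above 77.6% to 81.7% with heat-killed MJ2 and above 29.7% to 48.7% with surface proteins. By group mean its place was 491st, 2275th and 6542nd.

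**Figure D1:**
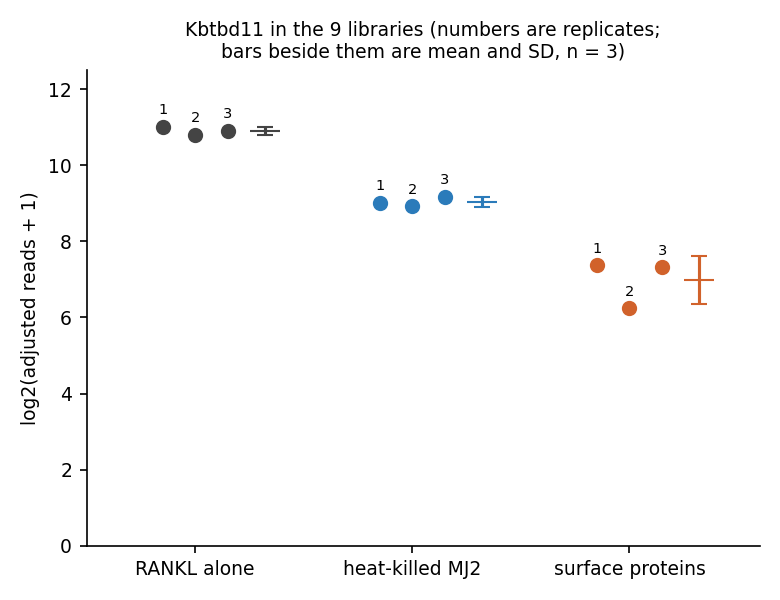
Kbtbd11 in each library as log2(adjusted reads + 1), with replicate numbers above the points and the mean and SD of 3 libraries beside them. The libraries with RANKL alone sit near 11, those with heat-killed MJ2 near 9 and those with surface proteins between 6.24 and 7.37, with replicate 2 the lowest.

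On the log2(adjusted reads + 1) scale the level was 10.91 ± 0.10 with RANKL alone, 9.04 ± 0.13 with heat-killed MJ2 and 6.98 ± 0.63 with surface proteins (SD, n = 3 each). The spread with RANKL alone and with heat-killed MJ2 was like that of genes within 0.5 of the same level, whose median SDs were 0.12 and 0.15. The spread with surface proteins was wide: the median SD of 1970 genes at that level was 0.26, and 96.1% of them had a smaller one. The highest and the lowest surface protein library differed by 1.13 on the log2 scale.

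The wide spread came from surface protein replicate 2, which held 74.8 adjusted reads. This library was also the lowest of the 3 for 454 of the 796 genes that passed the test as lower with surface proteins, or 57.0%, against 18.3% and 24.6% for replicates 1 and 3. The summed adjusted reads of 20 osteoclast genes were 14617, 10678 and 14396 in surface protein replicates 1 to 3. Replicate 2 was thus low for Kbtbd11 and for the osteoclast genes together, and its part in the result was measured by leaving it out, as given with the ranks.

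Against RANKL alone, Kbtbd11 differed by -3.93 on the log2 scale with surface proteins (limma SE 0.32), which is 15.3-fold lower or 6.55% of the control level. With heat-killed MJ2 it differed by -1.87 (SE 0.14), which is 3.66-fold lower or 27.3% of the control level. These comparisons share the libraries with RANKL alone and their values are set side by side only. Without surface protein replicate 2 the first difference was -3.57. Of all genes tested, 7.32% passed as lower with surface proteins and 0.897% as lower with heat-killed MJ2 (adjusted p below 0.05 together with a 2-fold change). Since Kbtbd11 was chosen on these contrasts, no call is drawn for it from these shares.

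By size of the fall, Kbtbd11 ranked 16th of 11193 genes with surface proteins and 58th with heat-killed MJ2. Without surface protein replicate 2 the first rank was 33, and without heat-killed MJ2 replicate 1 the second was 108. The ranks also moved with the constant added before the log: with constants of 0.1 and 5 they were 48 and 4 with surface proteins and 115 and 19 with heat-killed MJ2. With heat-killed MJ2 the rank was 93 after quantile normalization and 122 with no filter on low values. Most genes ahead of it were scarce. The 15 genes ahead with surface proteins had a median of 82.7 adjusted reads with RANKL alone, and 6 of them were at or under 3 adjusted reads in every surface protein library. The 57 genes ahead with heat-killed MJ2 had a median of 23.5. None of either set had a higher level than Kbtbd11 with RANKL alone.

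The 5 genes with the deepest fall under surface proteins were Scel, Stc1, Prss35, Serpinb11 and Ptgds. Scel encodes sciellin, a protein of the cornified envelope, and stood at 245.6, 36.7 and 43.5 adjusted reads with RANKL alone and at 0.121 or less with surface proteins. Against a floor of 3 reads per library, which covers counting error only, it was at least 36.2-fold lower, and the others were at least 20.2-fold lower. RANKL alone replicate 1 carried much of these bounds: without it Scel was at least 13.4-fold, Stc1 12.8-fold and Prss35 12.05-fold lower. For these genes the fall ended at the floor, whereas Kbtbd11 kept a mean of 132.5 ± 50.1 adjusted reads (SD, n = 3).

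The 5 genes with the deepest fall under heat-killed MJ2 were Ptgds, Stc1, Mrgprf, Trp53i11 and Rnf152. Their means with RANKL alone were 13.3 to 79.0 adjusted reads, and none exceeded 6.84 in a heat-killed MJ2 library. Ptgds, which encodes a prostaglandin D2 synthase, and Stc1, which encodes the secreted hormone stanniocalcin, were in both sets of 5.

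Under stricter filters on level, Kbtbd11 stood nearer the head of the order. The first 2 filters below used the treated libraries too, so they tend to leave out genes that fell to the floor. Of the 15 genes ahead with surface proteins, 9 were at or under 10 adjusted reads in every surface protein library. Of the 9483 genes that reached 10 adjusted reads in all 9 libraries it ranked 3rd with surface proteins and 8th with heat-killed MJ2. Of the 5595 genes whose mean over all 9 libraries was above the median, it ranked 3rd and 2nd. Chst1 and Ranbp3l were ahead of it with surface proteins, and Ranbp3l with heat-killed MJ2, all named after their values were seen. Within 1 log2 unit of its own level with RANKL alone, which took in 980 genes, it was the most lowered in both comparisons. These subsets were set after the data were seen and describe the same fold changes.

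**Figure D2:**
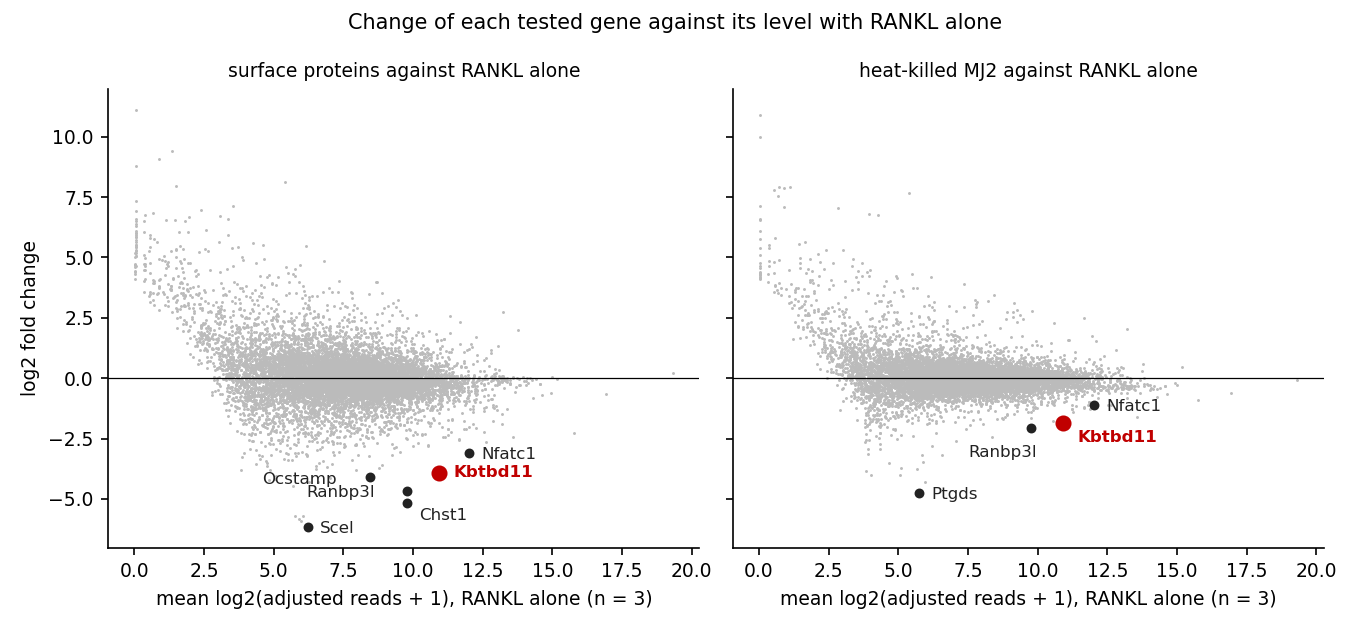
Log2 fold change of each tested gene (grey) against its mean level with RANKL alone, for surface proteins (left) and heat-killed MJ2 (right), with Kbtbd11 in red and a few other genes named. Kbtbd11 lies at -3.93 and -1.87 at a level of 10.91, below the genes of like level, while the deepest falls belong to genes of lower level such as Scel and Ptgds.

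The difference between the treatments was the contrast that the choice of the gene did not use directly. This contrast rests on libraries the choice did use, so its p-values are not independent of that choice. Kbtbd11 was lower with surface proteins than with heat-killed MJ2 by 2.06 on the log2 scale (SE 0.32; 4.17-fold), with an adjusted p of 0.014 in limma after Benjamini-Hochberg adjustment over 10916 genes. It passed together with 4.97% of genes that were lower and 5.08% that were higher. All 3 surface protein libraries lay below all 3 heat-killed MJ2 libraries, and the two-sided exact permutation test gave 0.1, the smallest p that 3 against 3 allows. The call was lost without heat-killed MJ2 replicate 1 (adjusted p 0.059) and without replicate 3 (adjusted p 0.055), within a range of 0.0039 to 0.059 over 14 alternatives. A protein extract and whole heat-killed cells were given at doses in different units, so the values are a difference between these 2 treatments as applied.

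The genes most like Kbtbd11 were sought over the 9 libraries by the root mean square difference of log2 values, each gene taken relative to its own mean with RANKL alone. These genes were picked for likeness, so their values carry no test. Col27a1, which encodes a fibrillar collagen chain, was nearest at 0.313, against a median of 2.55 over 11192 genes. It was the only gene within 0.5 and 40 lay within 1. Col27a1 stood at 487, 371 and 447 adjusted reads with RANKL alone, at 98.2, 151 and 156 with heat-killed MJ2 and at 57.7, 18.2 and 29.8 with surface proteins. As for Kbtbd11, its surface protein replicate 2 was the lowest library.

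Next came Rarb, a retinoic acid receptor, at 0.510 and Ocstamp, a membrane protein needed for osteoclast fusion, at 0.527. Apbb1, an adaptor that binds the amyloid precursor protein, followed at 0.631 and Rab15, a GTPase of the endocytic route, at 0.649. Nfatc1 was the sixth at 0.670. Neurl1b, a ubiquitin ligase that acts on Notch ligands, was at 0.686 and Tmem204 at 0.722. Of these 8 genes Neurl1b was the only one besides Nfatc1 above 1000 adjusted reads with RANKL alone, with a mean of 1501. Neurl1b differed by -1.76 with heat-killed MJ2 and by -2.80 with surface proteins.

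**Figure D3:**
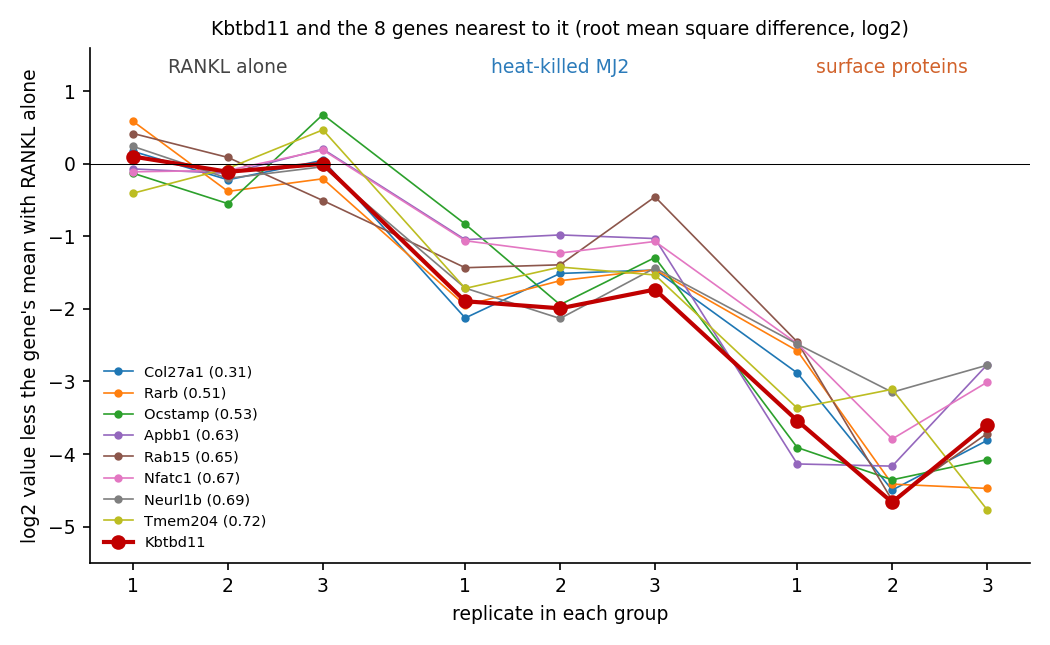
Log2 value of Kbtbd11 (thick red) and of the 8 nearest genes in each library, less each gene's mean with RANKL alone, with the root mean square difference from Kbtbd11 in the key. Lines only join the values of a gene. All 9 genes step down from RANKL alone to heat-killed MJ2 to surface proteins in group mean, and Kbtbd11 has the lowest mean of them with heat-killed MJ2.

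When each gene was scaled to the same spread, so that only the shape over the libraries counted, the nearest were Srgap3 (0.133), S100a4 (0.146), Csf1r (0.146), Dap (0.150) and 1700025G04Rik (0.151), against a median of 1.42. S100a4 is a calcium-binding protein and Csf1r is the receptor for macrophage colony-stimulating factor. Csf1r, a macrophage marker, stood at 8809 to 9877 adjusted reads with RANKL alone, at 5552 to 6575 with heat-killed MJ2 and at 2657 to 4161 with surface proteins. Their steps were smaller than those of Kbtbd11: Srgap3 differed by -2.37 with surface proteins and -1.22 with heat-killed MJ2, and Csf1r by -1.48 and -0.62.

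Kbtbd11 was the most abundant BTB-Kelch transcript with RANKL alone, and not in the treated groups. Among 53 genes of the family including itself it was 1st with RANKL alone, 3rd with heat-killed MJ2 and 11th with surface proteins. It made up 26.0% to 30.2% of the family's adjusted reads with RANKL alone, 10.3% to 11.96% with heat-killed MJ2 and 2.02% to 4.03% with surface proteins. The other 52 members summed to 4758 to 5093 adjusted reads with RANKL alone, 4206 to 4254 with heat-killed MJ2 and 3620 to 3992 with surface proteins.

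Of the other members of the family, 16 of the 32 tested with surface proteins had a fold change below 0. There, 4 of the 32 passed as lower and 2 as higher by limma, against 7.32% and 10.2% of all genes, and their median log2 fold change was 0.00 against -0.01 over all genes. With heat-killed MJ2, 17 of 33 had a fold change below 0, and the median was -0.03. None of the 33 passed as lower by limma, while 1 passed as higher, against 0.897% and 3.37% of all genes. At an unadjusted p under 0.05 were 8 of the 33, against 2444 of the 10814 genes tested. Between the treatments Enc1 was lower with surface proteins and Klhl22 and Klhl24 were higher, among 32 tested, against 4.97% and 5.08% of all genes. The call of Enc1 held with single libraries omitted, and those of Klhl22 and Klhl24 were lost without at least 1.

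The members that fell with surface proteins were Klhl30 (-4.06, adjusted p 0.023), Klhl6 (-2.35, adjusted p 0.019), Enc1 (-2.06, adjusted p 0.0021) and Ivns1abp (-1.26, adjusted p 0.012), all by limma. Klhl30, which ranked just ahead of Kbtbd11 at 15th, was scarce: it stood at 82.2, 25.8 and 16.8 adjusted reads with RANKL alone and at 6.83, 0 and 0.0996 with surface proteins. With heat-killed MJ2 its fold change was -3.72, 7th from the lowest of all genes, and did not pass (adjusted p 0.072 by limma). Klhl6, an adaptor of B-lymphocyte signalling, stood at 245, 298 and 320 adjusted reads with RANKL alone and at 42.0, 30.6 and 128 with surface proteins. Enc1, an actin-binding kelch protein, stood at 116, 93.8 and 101 with RANKL alone and at 30.3, 25.8 and 17.7 with surface proteins, and differed by -0.09 with heat-killed MJ2.

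Ivns1abp, a kelch protein that binds an influenza virus protein and actin, was the next most abundant member with RANKL alone. It stood at 1226, 1129 and 1218 adjusted reads there, at 890, 958 and 1012 with heat-killed MJ2 and at 698, 383 and 457 with surface proteins, so it stood above Kbtbd11 in all 6 treated libraries. Keap1, the sensor that holds the antioxidant factor NRF2 for degradation, and Klhl5 completed the 3 highest other members and differed by -0.37 and -0.33 with surface proteins, neither passing.

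The members that rose with surface proteins were Klhl41 (2.14, adjusted p 0.0022), a protein of skeletal muscle, and Klhl22 (1.45, adjusted p 0.033), a cullin-3 adaptor of cell division and nutrient signalling, by limma. Klhl41 also rose with heat-killed MJ2 (1.48, adjusted p 0.034), from 16.8, 9.82 and 15.8 adjusted reads to 48.1, 30.0 and 45.1. When single libraries were omitted one after another, the calls of Enc1, Ivns1abp and Klhl41 with surface proteins held, while those of Klhl22, Klhl30 and Klhl6, and that of Klhl41 with heat-killed MJ2, were lost without at least 1 library.

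**Figure D4:**
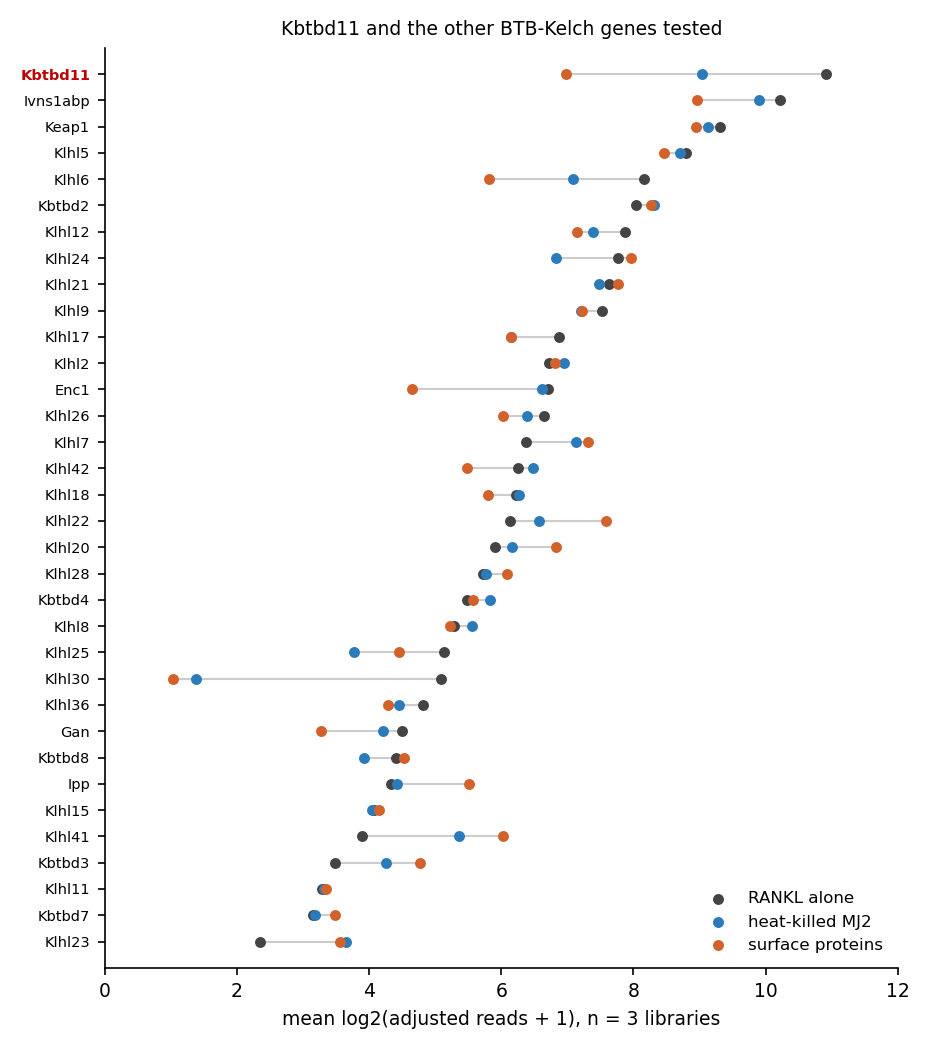
Mean level of Kbtbd11 and of the 33 other BTB-Kelch genes tested with surface proteins or heat-killed MJ2, ordered by the level with RANKL alone, as log2(adjusted reads + 1) in each group. Kbtbd11 heads the list with RANKL alone at 10.91, and Ivns1abp and Keap1 stand above it in both treated groups.

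No core subunit of the ligase that Kbtbd11 serves passed. Cul3, the scaffold, stood at 430 to 513 adjusted reads with RANKL alone, 471 to 539 with heat-killed MJ2 and 394 to 468 with surface proteins. Both treated ranges overlapped that with RANKL alone, and every surface protein library lay below every heat-killed MJ2 library. Its log2 fold changes were -0.07 with surface proteins and 0.15 with heat-killed MJ2. Rbx1, the RING subunit that recruits the ubiquitin-conjugating enzyme, differed by -0.15 and 0.04. Nedd8, the modifier that switches cullins on, differed by -0.53 and -0.09 and did not reach a fold change of 2.

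Of 23 genes of the cullin-3 ligase and its neddylation, 1 passed with surface proteins, against 10.2% of all genes higher and 7.32% lower: Dcun1d3, a protein that assists neddylation, was higher (1.73, adjusted p 0.011 by limma), and this call held with each library left out. With heat-killed MJ2 none of the 23 passed by limma, where 3.37% of all genes were higher and 0.897% lower. There, 1 of the 23 was at an unadjusted p under 0.05, against 2444 of the 10814 genes tested. The medians were -0.10 and 0.08. Between the treatments Dcun1d4 was higher with surface proteins (1.05, adjusted p 0.032 by limma), where 5.08% of all genes were higher, a call lost without 5 of the 6 libraries.

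Of the other BTB adaptors of cullin-3, 19 were tested and 13 had a fold change above 0 with surface proteins, with a median of 0.46. By limma 13 of the 19 were at an unadjusted p under 0.05, against 4596 of the 10874 genes tested. Their summed adjusted reads were 3402 to 3560 with RANKL alone, 3778 to 3982 with heat-killed MJ2 and 4295 to 4360 with surface proteins. Over all genes 10.2% passed as higher and 7.32% as lower. With surface proteins Kctd6 (1.85) and Rhobtb2 (1.08) were higher and Btbd2 (-1.49) and Btbd6 (-1.19) lower, of 19 tested, and the calls of Rhobtb2 and Btbd6 were lost without at least 1 library. With heat-killed MJ2 none of the 19 passed by limma, against 3.37% higher and 0.897% lower over all genes. There, 4 of the 19 were at an unadjusted p under 0.05, against 2444 of the 10814 genes tested. Between the treatments Kctd6 and Kctd21 were higher with surface proteins, where 5.08% of all genes were higher, and both calls were lost without at least 1 library. The other cullins had no member passing of 7 by limma with surface proteins or with heat-killed MJ2. At an unadjusted p under 0.05 were 4 and 1 of the 7, against 4596 of 10874 and 2444 of 10814 genes tested.

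Nfatc1, the transcript of the factor that Kbtbd11 is known to mark for degradation, was lower in both treated groups. It stood at 3810, 3885 and 4698 adjusted reads with RANKL alone, at 1972, 1754 and 1964 with heat-killed MJ2 and at 739, 297 and 511 with surface proteins. It fell by 3.09 on the log2 scale with surface proteins (SE 0.34, adjusted p 0.0021) and by 1.12 with heat-killed MJ2 (SE 0.15, adjusted p 0.013), by limma, and surface protein replicate 2 was again the lowest. The call with heat-killed MJ2 was lost without heat-killed MJ2 replicate 1 or 3. The RNA of Kbtbd11 and of Nfatc1 was thus lower together in these libraries, and NFATc1 protein was not among the measurements analysed here.

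Among 19 osteoclast genes tested, 12 were lower with surface proteins and none higher by limma, with a median of -1.33, where 7.32% of all genes were lower. With heat-killed MJ2 4 were lower, with a median of -0.43, where 0.897% of all genes were lower. These 4 were Nfatc1, Fosl2 (-1.11), an AP-1 subunit, Acp5 (-1.11), which encodes tartrate-resistant acid phosphatase, and Atp6v0d2 (-1.10), a proton pump subunit. Each of these 4 calls was lost without at least 1 library, that of Acp5 without 5 of the 6 and that of Atp6v0d2 whichever of the 6 was left out, while 10 of the 12 with surface proteins held. Between the treatments 9 were lower with surface proteins, of which 3 held, where 4.97% of all genes were lower.

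Set among 20 genes with these 19, Kbtbd11 had the second deepest fall with surface proteins, after Ocstamp at -4.12, and the deepest with heat-killed MJ2. Ocstamp stood at 322, 240 and 564 adjusted reads with RANKL alone and at 22.5, 16.2 and 19.9 with surface proteins. Its fold change with heat-killed MJ2 was -1.35 and did not pass (adjusted p 0.11 by limma). In level Kbtbd11 was 8th among 21 osteoclast genes including itself with RANKL alone and 16th with surface proteins.

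In the calcium and calcineurin route that activates NFATc1, 2 genes passed as higher and 2 as lower with surface proteins of 22 tested, near the 10.2% and 7.32% over all genes. Rcan1, an inhibitor of calcineurin and a target of NFAT, was lower (-1.85) and so was Nfatc2, another NFAT factor, while Itpr2, a calcium channel of the endoplasmic reticulum, was higher (1.17) and so was Ppp3cc, a catalytic subunit of calcineurin (1.05). The calls of Nfatc2 and Ppp3cc were lost without at least 1 library. With heat-killed MJ2 none of 23 passed by limma, where 3.37% of all genes passed as higher and 0.897% as lower. There, 4 of the 23 were at an unadjusted p under 0.05, against 2444 of the 10814 genes tested.

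No other ubiquitin ligase known to lower NFATc1 passed, of 5 tested with surface proteins and 6 with heat-killed MJ2, by limma. The shares over all genes, 10.2% higher and 7.32% lower with surface proteins and 3.37% and 0.897% with heat-killed MJ2, would give about as few among so few genes. At an unadjusted p under 0.05 were 3 and 2 of them, against 4596 of 10874 and 2444 of 10814 genes tested. With surface proteins Mdm2 (0.76, adjusted p 0.023), Vhl (0.72, adjusted p 0.032) and Stub1 (-0.82, adjusted p 0.029) missed only the 2-fold change, by limma. So did Mdm2 with heat-killed MJ2 (0.83, adjusted p 0.034). The 12 reference genes gave no call by limma in either comparison, and their medians were -0.01 and 0.11. At an unadjusted p under 0.05 were 6 and 3 of the 12, against the same 4596 of 10874 and 2444 of 10814 genes. With surface proteins Tbp (0.76, adjusted p 0.019) and Sdha (-0.71, adjusted p 0.037) missed only the 2-fold change, by limma.

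Of the 10 macrophage markers, 6 had a fold change above 0 and 4 below with surface proteins, and most that passed were higher. The shares over all genes passing as higher were 10.2% with surface proteins and 3.37% with heat-killed MJ2. With surface proteins Adgre1 (3.81), Itgam (3.01), Lyz2 (2.48) and Cd14 (2.37) were higher by limma and Csf1r (-1.48) lower, and all 5 calls held with each library left out. With heat-killed MJ2 Cd14 (3.10), Lyz2 (2.79) and Itgam (2.26) were higher, and the call of Lyz2 was lost without at least 1 library. The summed adjusted reads of the 10 markers ranged from 24770 to 25590 with RANKL alone, from 30260 to 31150 with heat-killed MJ2 and from 27720 to 30330 with surface proteins. Whether the make-up of the cultures had a part in the level of Kbtbd11 was not tested.

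In the GENCODE annotation of mm10, Kbtbd11 lies on chromosome 8 from 15011025 to 15033333 on the plus strand and has 4 annotated transcripts. The main coding transcript has 2 exons of 290 and 6683 bases, parted by an intron of 15336 bases. The coding sequence of 1899 bases, for 633 residues, lies in the second exon, after a 5′ untranslated region of 1042 bases over both exons and before a 3′ untranslated region of 4032 bases with the stop codon. The transcripts annotated as protein coding and nonsense mediated decay end at the same base, so reads from the 3′ end cannot tell them apart. On the other strand 5830468F06Rik and Gm37844 overlap the gene and were not analysed here. They lie over the intron and the start of the second exon, away from the 3′ end of Kbtbd11.

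**Figure D5:**
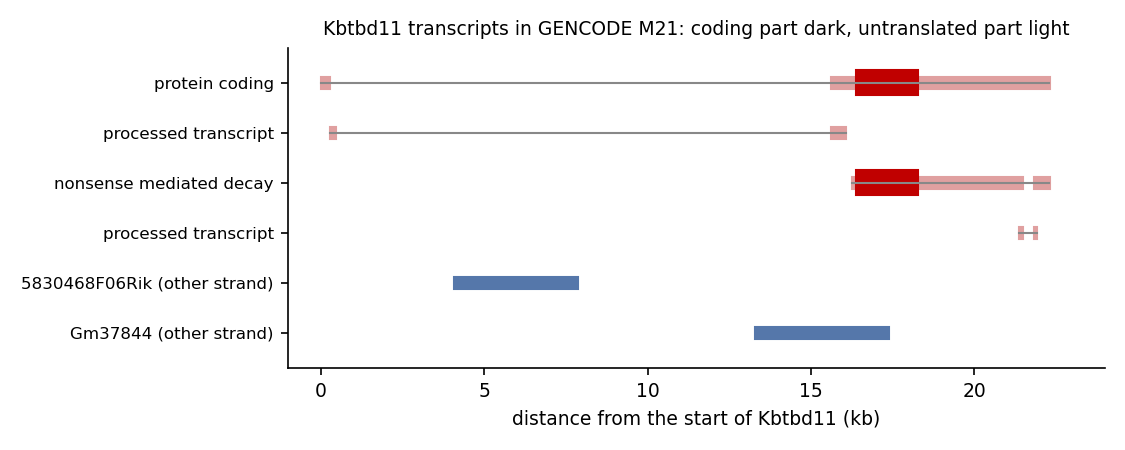
Annotated transcripts of Kbtbd11 by distance in kb from the start of the gene, with coding parts in dark red, untranslated parts in light red and overlapping genes of the other strand in blue. The coding sequence and the long 3′ untranslated region share the second exon of the coding transcript.

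The neighbours of Kbtbd11 on the chromosome were examined by position alone. Of the 5 protein-coding genes listed on either side, 9 of 10 were found among the gene rows and 5 were tested. Arhgef10 ends 9.9 kb before Kbtbd11 and stood at 204, 222 and 167 adjusted reads with RANKL alone, at 118, 109 and 130 with heat-killed MJ2 and at 157, 70.0 and 199 with surface proteins. Its log2 fold changes of -0.60 with surface proteins and -0.72 with heat-killed MJ2 did not pass. Myom2, 24.3 kb after Kbtbd11, was at 0 in all 9 libraries. BB014433, which GENCODE annotates as protein coding on the other strand between Kbtbd11 and Myom2, is listed as a long non-coding RNA in the RefSeq table used, so it was not among these 10, and it reached at most 9.60 adjusted reads with RANKL alone, 3.06 with heat-killed MJ2 and 0.971 with surface proteins.

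The neighbour that passed in both comparisons was Angpt2, a ligand of the endothelial receptor Tie2, which begins 3657 kb after Kbtbd11. It differed by -1.21 with surface proteins (adjusted p 0.014) and by -1.09 with heat-killed MJ2 (adjusted p 0.036), by limma, and the second call was lost without 5 of the 6 libraries. Over all genes 7.32% and 0.897% passed as lower, and Angpt2 was 1 of 5 neighbours tested. Cln8, Erich1 and Mcph1 lay between -0.42 and 0.64 and none passed.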

How the data were processed

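For 9 libraries the authors deposited log2 values, 1 per gene row. Per the labels, total RNA was made into 3′-end QuantSeq libraries. The submitters' processing notes name Bowtie2, bedtools and mm10, with tool versions not given in the sources used here. The study's methods name quantile normalization, and which scaling the values carry is not known. Values were taken as log2(adjusted reads + 1). In the library where the fewest low values lay within 0.25 of a whole read, 73.1% did. This margin is wide, so many values would fall within it in any case. The 35 symbols with several rows were kept apart.

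Genes with at least 10 adjusted reads in 3 of 6 libraries were tested with limma 3.58.1 (R 4.3.3) on each pair of groups, two-sided, with Benjamini-Hochberg adjustment over all genes tested (threshold 0.05, with a change of 2-fold or more). The script was tested on simulated data. Ranks used 10 adjusted reads in 3 of 9 libraries. Alternatives changed scaling, the added constant, the filter, the libraries in the fit, a replicate block and each library left out. Beyond Kbtbd11, the genes named are the 5 most lowered in each comparison, up to 4 passing members per direction and the 3 highest members of each list, the nearest genes by pattern and chromosomal neighbours. Members and lists were chosen with earlier results of these data known. No 2 libraries were identical: chi-square per degree of freedom within groups was 6.90 to 18.5. The promoter and protein sequences of Kbtbd11 were not analysed here.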

Additional observations from a re-analysis of the deposited data

Results flagged for a closer look

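The effect of surface proteins on Kbtbd11 differed from that of heat-killed MJ2. The difference between the effects was -2.06 on the log2 scale (SE 0.32, adjusted p 0.014 by limma), and Kbtbd11 was lower in 3 of 3 surface protein libraries than in any heat-killed MJ2 library. The value is flagged because the difference itself was tested and passed. It was tested on libraries that had also been used to choose the gene, so its adjusted p is not independent of that choice. That adjusted p rose above 0.05 when either of 2 heat-killed MJ2 libraries was left out.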

How the results depend on the processing

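Kbtbd11 was lower in both treated groups than with RANKL alone under all 14 alternatives, by -4.13 to -3.57 with surface proteins and by -1.94 to -1.81 with heat-killed MJ2 on the log2 scale. Between the treatments the difference ranged from -2.26 to -1.69, and the call was lost only without heat-killed MJ2 replicate 1 (-2.07, adjusted p 0.059) and replicate 3 (-1.99, adjusted p 0.055) among the 14.

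The rank was less stable than the fold change. With surface proteins it was 48 with a constant of 0.1, 4 with a constant of 5 and 3 with 10 adjusted reads in every library, and 14 to 33 with each library left out. With heat-killed MJ2 it was 93 after quantile normalization, 115 and 19 with constants of 0.1 and 5, 122 with no filter, 8 with 10 adjusted reads in every library and 70 to 108 with each library left out. A smaller constant widens the fold changes of scarce genes by construction, and the stricter filter ranks fewer genes.

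Genes passing with heat-killed MJ2 numbered 461, but 267 with no filter and 289 with a replicate block, and 189 to 334 with each library left out, lowest without heat-killed MJ2 replicate 1. Between the treatments 1098 passed, and 342 to 1167 with each library left out. With surface proteins 1902 passed, 1490 to 1995 over the alternatives. Of 420 counts over the lists, 358 stayed within 1.5 times and 62 moved. The causes of these changes were not tested.

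Same-numbered libraries of different groups deviated together weakly, with correlations of 0.0179 to 0.106 and a median of 0.0656. The 18 other pairs had a median of -0.0424, and 9 of 9 libraries correlated best with their own number. The main fits did not take replicate numbers into account. With the replicate block the adjusted p of Kbtbd11 between the treatments was 0.028, and 1813 genes passed with surface proteins and 980 between the treatments. Among the list members and neighbours, the block ended the calls of Acp5, Angpt2, Atp6v0d2, Fosl2 and Lyz2 with heat-killed MJ2, of Btbd6, Klhl22 and Nfatc2 with surface proteins, and of Acp5, Dcstamp, Dcun1d4, Kctd6 and Kctd21 between the treatments. With 3 libraries per group an exact permutation test cannot go below 0.1. The bounds without RANKL alone replicate 1 were added after the data were seen. The motif search in the promoter of Kbtbd11 was not run.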
